A study of Mus musculus with 17 samples.

Results

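The genes described here are 10 genes of the circadian clock, followed in the hippocampus of mice in a kindling experiment with the convulsant pentylenetetrazol (PTZ). They are Per1, Per2, Per3, Cry1, Cry2, Ciart, Nr1d1, Nr1d2, Dbp and Tef. They were found by their Ensembl identifiers, and all 10 were present among the 55471 genes of the count table. The clock is a feedback loop. CLOCK and BMAL1 (the product of Arntl) bind E-boxes and switch on Per, Cry, Nr1d, Dbp and Ciart genes, and the PER, CRY and CIART proteins then repress CLOCK and BMAL1. The REV-ERB receptors made from Nr1d1 and Nr1d2 repress Arntl, and the output factors DBP and TEF act on D-boxes. Per1 differs from most of this set in that it is also known as an immediate early gene, which cAMP and calcium signals can switch on within minutes through the factor CREB. CBP, the acetyltransferase encoded by Crebbp, is a coactivator of CREB.

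The data were read counts from 17 hippocampal libraries of C57BL/6 mice (C57BL/6J in the methods of the study) aged 3 to 6 months, each library from 1 mouse. CBP-ifKO mice carried a floxed Crebbp gene and creERT2, a Cre recombinase activated by tamoxifen, under a Camk2a promoter that is active in forebrain excitatory neurons. By the methods of the study, controls were littermates without creERT2, although the labels name Camk2a_creERT2 for controls as well. All mice had received 5 doses of tamoxifen, and the recombined Crebbp gene encodes a truncated CBP without acetyltransferase activity. Sal mice had no kindling and were given saline. PTZ0 and PTZ45 mice received the kindling protocol of repeated PTZ at 45 mg/kg, with saline (PTZ0) or 45 mg/kg PTZ (PTZ45) as the last injection. The hippocampus was dissected 45 min after the last injection. By the study, control mice came to have seizures under this protocol, whereas no CBP-ifKO mouse reached the stage of progressive seizures. Each group had 3 libraries, except Control PTZ45 with 2. The clock time of the last injection and dissection was not given in the sources used here, so that the phase of the clock in each mouse is unknown.

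The libraries held 5831992 to 18735643 counts, and the members were covered by 58 to 7105 counts per library. Values below are normalized counts, that is, counts divided by the DESeq2 size factor of the library. Crebbp lay at 1824 to 2429 in the 8 control libraries and at 1061 to 1337 in the 9 CBP-ifKO libraries. Reads on Esr1, whose hormone-binding domain is fused to Cre in creERT2, lay at 41.0 to 77.8 and at 703 to 941. Excised tissue is a mix of cells, so fewer cells of a type and less RNA per cell cannot be told apart. Of 5 markers of the suprachiasmatic nucleus, the seat of the central clock, 3 were near 0, with Avp at no more than 3.20 normalized counts, Nms at no more than 0.878 and Six6 at no more than 1.05. The others, Vip, which interneurons also express, and Rora, lay at 151 to 261 and at 1074 to 1332. A set of 5 libraries (Control Sal 2, Control PTZ0 2, CBP-ifKO Sal 1, CBP-ifKO PTZ0 3 and CBP-ifKO PTZ45 2) held over 5000 normalized counts of Ttr, a marker of choroid plexus, against 63.0 to 774 in the others. Library names give 3 lanes. Control Sal and Control PTZ0 shared lane 3, Control PTZ45 and CBP-ifKO Sal lane 4, and CBP-ifKO PTZ0 and CBP-ifKO PTZ45 lane 5. In all other comparisons lane and group cannot be told apart.

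Per1 and Ciart are the members whose values moved after PTZ, and their promoters are shown here for that reason. The windows run from 250 bases before to 50 bases after the start site and come from RefSeq on GRCm38.p6, which had an entry for 9 of the 10 genes and none for Per2. They were searched on both strands for the cAMP response element (CRE, TGACGTCA), its core TGACG, the E-box CACGTG, the D-box TTATGTAA and AGGTCA, the core of the element read by REV-ERB and ROR receptors. Capitals mark CRE cores, E-boxes and D-boxes. Per1 has a pair of start sites in this table, at chr11:69098699-69098998 and chr11:69099902-69100201 on the plus strand, and Ciart has 1, at chr3:95882179-95882478 on the minus strand.
Per1 start site 1: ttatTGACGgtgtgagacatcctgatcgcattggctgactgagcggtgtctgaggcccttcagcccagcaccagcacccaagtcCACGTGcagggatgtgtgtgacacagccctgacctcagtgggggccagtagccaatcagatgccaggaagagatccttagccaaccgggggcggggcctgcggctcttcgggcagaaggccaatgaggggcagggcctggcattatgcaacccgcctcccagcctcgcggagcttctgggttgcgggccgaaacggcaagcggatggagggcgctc
Per1 start site 2: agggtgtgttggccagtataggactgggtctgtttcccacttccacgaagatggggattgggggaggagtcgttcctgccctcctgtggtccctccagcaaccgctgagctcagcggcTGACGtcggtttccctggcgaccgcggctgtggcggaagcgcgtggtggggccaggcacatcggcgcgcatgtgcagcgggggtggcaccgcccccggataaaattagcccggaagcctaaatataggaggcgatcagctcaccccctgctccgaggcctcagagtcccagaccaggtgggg
Ciart: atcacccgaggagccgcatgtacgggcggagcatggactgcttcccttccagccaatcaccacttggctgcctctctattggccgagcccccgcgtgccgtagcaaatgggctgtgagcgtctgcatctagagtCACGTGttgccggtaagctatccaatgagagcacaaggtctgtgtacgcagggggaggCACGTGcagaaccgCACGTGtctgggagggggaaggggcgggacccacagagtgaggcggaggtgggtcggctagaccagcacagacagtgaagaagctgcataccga

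The upstream Per1 window holds a CRE core 246 bases before the start site, an E-box 166 bases before it and an AGGTCA match on the minus strand 137 bases before it. The downstream Per1 window holds a CRE core 132 bases before its start site. The Ciart window holds 3 E-boxes, at 116, 58 and 44 bases before the start site, and no CRE core. None of the windows of these genes holds a full CRE, which occurs in 1.79% of the 32851 mouse promoter windows of this length, and the CRE core, which is also the first part of the full element, occurs in 20.8%. An E-box occurs in 7.15%. Among members that were not called after PTZ, Cry1 has an E-box 60 bases and a CRE core 8 bases before its start site, Cry2 has a CRE core, both Tef windows have an E-box, and Per3 has D-boxes at 205 and 158 bases, a motif found in 0.938% of windows. The AGGTCA core, in 16.3% of windows, occurs in that of Nr1d2. These letters are not in the Dbp and Nr1d1 windows. A match is a description of the letters and was not tested as a site.

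Levels between genes were compared per kilobase of exon in Control Sal. Tef was the highest member with 580 ± 9.99 normalized counts per kb (SD, n = 3), followed by Nr1d2 with 285 ± 22.3, Cry2 with 193 ± 17.9 and Nr1d1 with 136 ± 24.8. The libraries of these genes did not overlap with those of the next in the order. Per3 (105 ± 8.79), Per2 (88.3 ± 9.54), Per1 (85.2 ± 11.3) and Dbp (81.1 ± 2.15) followed, and neighbours in the order among these 4 overlapped, whereas Dbp did not overlap with Cry1, the next. Cry1 (55.4 ± 5.94) and Ciart (52.2 ± 1.97) were lowest and overlapped with each other. Over all 17 libraries Per1 varied most, with a coefficient of variation of 47.5%, and Ciart next with 33.1%, whereas Nr1d2 varied by 5.89%.

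**Figure D1:**
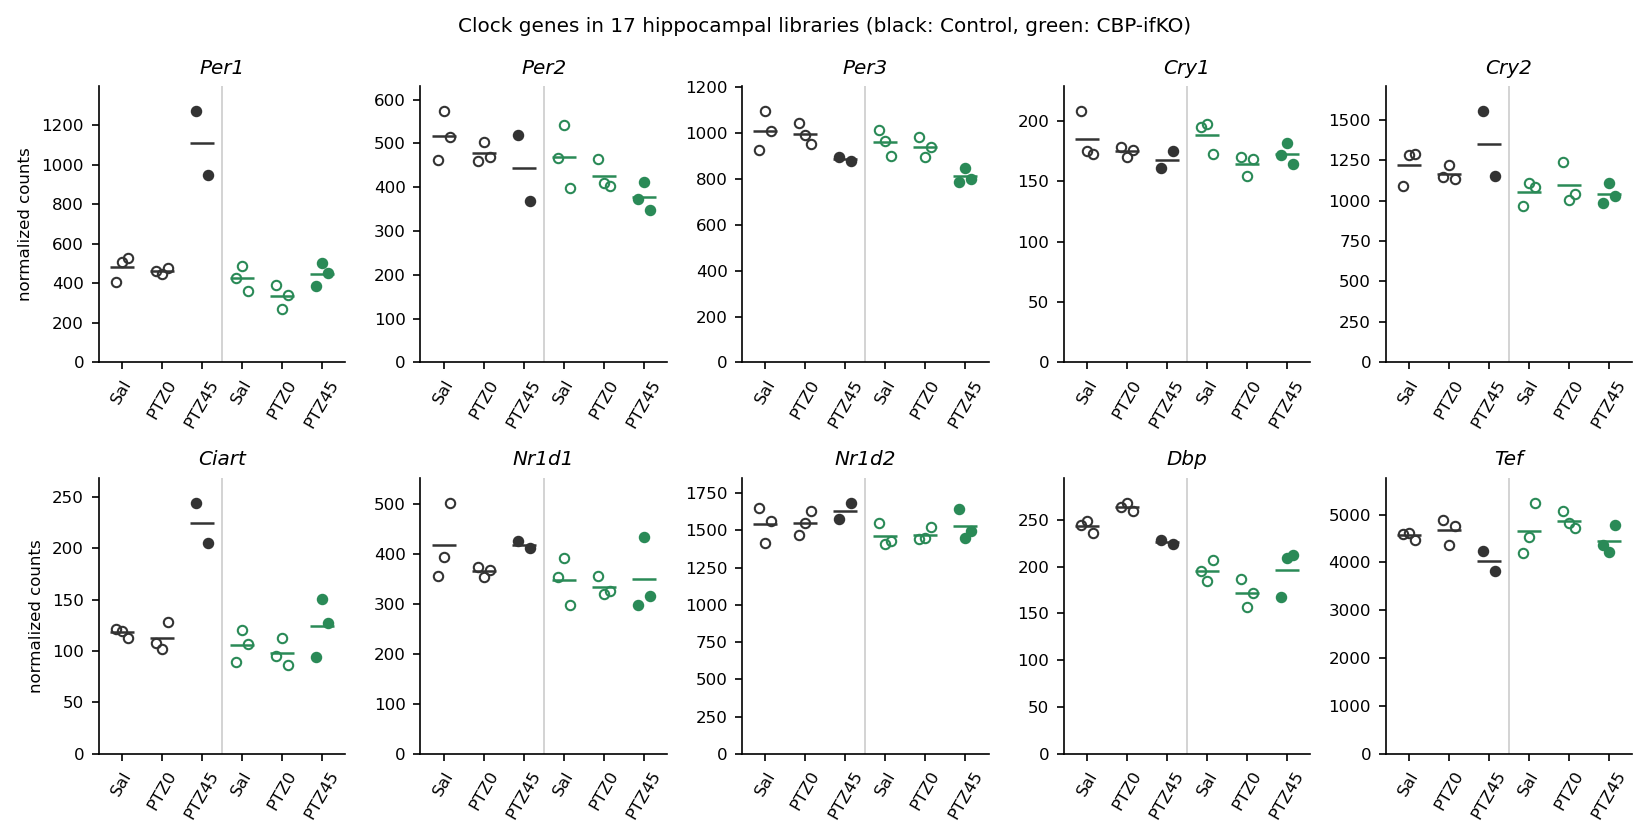
Normalized counts (y axis, from 0) of the 10 clock genes in each of 17 libraries by group (x axis). Open points are groups that received saline last, filled points are PTZ45, black is Control, green is CBP-ifKO, and bars are group means. Per1 and Ciart stand high in the 2 Control PTZ45 libraries, and Dbp lies lower in CBP-ifKO than in Control libraries.

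The first question was how the clock genes of control mice responded to the last PTZ injection. Per1 rose 2.31-fold and Ciart 1.90-fold over Sal, and no other member was called. Per1, a repressor of CLOCK and BMAL1, was at 408, 506 and 526 normalized counts in Control Sal, at 462, 447 and 478 in Control PTZ0, and at 1270 and 948.5 in Control PTZ45. Both PTZ45 libraries lay above all 6 libraries of mice given saline, and 16.7% of all genes lay above Sal without overlap. On the log2 scale Per1 changed by 1.21 (SE 0.14, adjusted p = 1.16e-14) over Sal and 1.26 (SE 0.12, adjusted p = 2.82e-22) over PTZ0. Both comparisons use the same PTZ45 libraries and are not independent. Of all genes tested, 0.939% were called higher over Sal and 1.18% over PTZ0. The call of Per1 held under all 13 alternatives in either comparison.

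Ciart, the repressor also known as CHRONO, was at 122, 119 and 113 normalized counts in Control Sal, at 108, 102 and 128 in Control PTZ0, and at 244 and 205 in Control PTZ45. The PTZ45 libraries did not overlap with the others, and 16.7% of all genes lay above Sal without overlap. Its log2 fold change was 0.93 (SE 0.19, adjusted p = 0.000217) over Sal and 0.99 (SE 0.20, adjusted p = 6.09e-05) over PTZ0. Without the first Control PTZ45 library the change over Sal was 0.80, with 1 PTZ45 library left. Whether the call depends on 1 mouse cannot be told from such a fit. The remaining library, at 205, lay above all control libraries given saline. With the replicate number as a block the call of Ciart was lost over Sal (adjusted p up to 0.960) and over PTZ0 (adjusted p = 0.105). For comparison, the immediate early genes Fos and Npas4 rose by 6.08 (SE 0.48) and 6.16 (SE 0.50) on the log2 scale over Sal in the same libraries.

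The other 8 members were not called in controls. Per2, a paralog of Per1, was at 462, 574 and 515 normalized counts in Sal and at 519 and 369 in PTZ45, so that the groups overlapped. Its log2 difference was -0.21 with a 95% interval of -0.51 to 0.09, which does not reach the rise of Per1. Per3 was at 926, 1095 and 1010 in Sal, at 1043, 989.7 and 953 in PTZ0, and at 893 and 877 in PTZ45, with a log2 difference of -0.19 (95% interval -0.40 to 0.02) over Sal. Its PTZ45 libraries lay below all Sal libraries, as was so for 15.6% of all genes, and it was not called. Cry1 differed by -0.15 (-0.52 to 0.21) and Cry2 by 0.15 (-0.10 to 0.40), both with overlapping groups. Cry2 was at 1552 in the first Control PTZ45 library and at 1152 in the other, which lies within the range of the saline libraries.

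The REV-ERB genes were not called in controls, with a log2 difference of 0.00 (95% interval -0.30 to 0.30) for Nr1d1 and 0.07 (-0.12 to 0.27) for Nr1d2 over Sal, and of 0.19 and 0.07 over PTZ0. The clock-controlled output genes were not called either. Dbp was at 244, 249 and 236 normalized counts in Sal, at 263, 268 and 259 in PTZ0, and at 228 and 224 in PTZ45, a log2 difference of -0.10 (-0.42 to 0.21) over Sal, which ran from -0.13 to 0.13 over 13 alternatives. Tef was at 4600, 4618 and 4474 in Sal and at 4249 and 3827 in PTZ45, a difference of -0.18 (-0.34 to -0.02). Both groups of PTZ45 values lay below all Sal values, a pattern shared by 15.6% of all genes tested, and neither was called (adjusted p = 0.978 and 0.538). Over PTZ0, Tef differed by -0.21 (adjusted p = 0.163), and it was called only without the first Control PTZ45 library.

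As a check within 1 lane, Control PTZ45 was compared with CBP-ifKO Sal, which differ in genotype as well as in treatment. Per1 was higher in Control PTZ45 by 1.40 on the log2 scale (SE 0.16, adjusted p = 1.54e-16) and Ciart by 1.12 (SE 0.22, adjusted p = 5.84e-05). No other member was called, against 3.05% of all genes called higher.

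In CBP-ifKO mice no member was called after PTZ by DESeq2 or edgeR, over either baseline. By DESeq2, 2 members had an unadjusted p under 0.05 over Sal (Per2 and Per3) and 2 over PTZ0 (Per1 and Per3), against 2.46% and 1.59% of all genes. Per1 was at 427, 488 and 361 normalized counts in Sal, at 392, 269 and 340 in PTZ0, and at 388, 503 and 453 in PTZ45. The PTZ45 libraries overlapped with both saline groups. The log2 difference was 0.09 (SE 0.14, adjusted p = 0.9999, 95% interval -0.19 to 0.36) over Sal and 0.43 (SE 0.14, adjusted p = 0.931, interval 0.15 to 0.71) over PTZ0, with both groups of the latter on 1 lane. The unadjusted p over PTZ0 was 0.00309, and the call was reached when the GC trend of each library was removed (log2 difference 0.56, adjusted p = 0.0238). The GC slopes, in log2 units per 10% GC, were -0.183, -0.074 and -0.027 in CBP-ifKO PTZ45 and 0.037, -0.039 and -0.023 in CBP-ifKO PTZ0, so that the groups overlapped. In controls they did not overlap, at -0.044 and -0.129 in PTZ45, 0.041 to 0.102 in Sal and 0.008 to 0.099 in PTZ0. There the GC correction changed the genes called over Sal from 163 to 143 higher and from 41 to 6 lower. Few genes at all were called in CBP-ifKOs, 0.294% in either direction over Sal and 0.0872% over PTZ0. Fos and Npas4 were among them, with log2 changes of 2.91 (SE 0.26) and 2.28 (SE 0.28) over Sal.

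Ciart was at 89.7, 120.4 and 107 normalized counts in CBP-ifKO Sal, at 94.96, 113 and 85.95 in PTZ0, and at 94.6, 151 and 127 in PTZ45. The groups overlapped, with a log2 difference of 0.25 (95% interval -0.18 to 0.69) over Sal and 0.35 (-0.08 to 0.78) over PTZ0. Per3 was the member with the lowest unadjusted p over Sal, 0.0126. It was at 1012, 965 and 901 in Sal, at 981, 896 and 939 in PTZ0, and at 786.5, 846 and 799 in PTZ45, so that all 3 PTZ45 libraries lay below all 6 saline libraries. Of all genes, 6.16% lay below Sal and 5.6% below PTZ0 without overlap. Its log2 difference was -0.25 (SE 0.10) over Sal and -0.21 (SE 0.09) over PTZ0, close to the -0.19 and -0.17 of the controls, and passed the test in none of these comparisons (adjusted p = 0.759 or above in CBP-ifKOs). Over Sal, Per2 differed by -0.295 (-0.56 to -0.03), Cry1 by -0.12, Cry2 by -0.01, Nr1d1 by 0.02 and Nr1d2 by 0.06, Dbp by -0.01 (-0.33 to 0.32) and Tef by -0.07 (-0.25 to 0.12). Over PTZ0 these 7 members lay between -0.16 and 0.195.

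**Figure D2:**
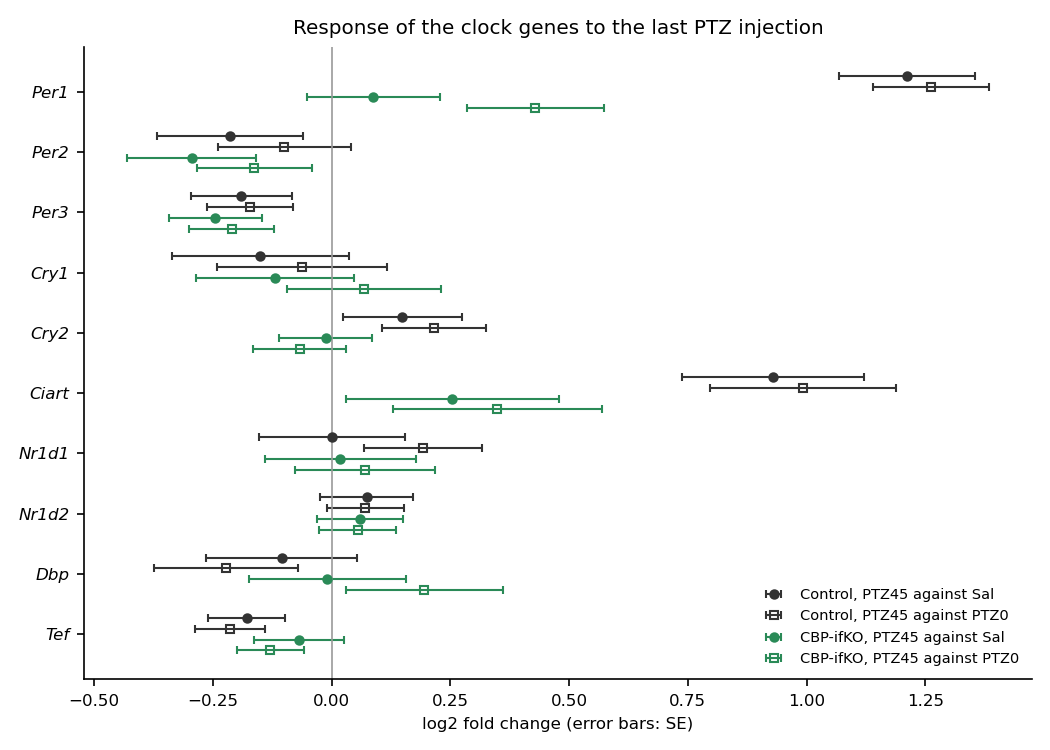
Log2 fold change (x axis) of each clock gene in PTZ45 against Sal (circles) and PTZ0 (squares) in Control (black) and CBP-ifKO (green) mice, with SE as error bars. The Control values of Per1 (1.21 and 1.26) and Ciart (0.93 and 0.99) lie apart from those of the other 8 genes, which lie between -0.223 and 0.215.

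An interaction term asked whether the genotypes responded differently. By the study, the genotypes also differed in seizures under the kindling protocol, and the part of seizures in these values was not tested. Per1 was the only member called. Its response was smaller in CBP-ifKOs by 1.12 on the log2 scale when Sal was the baseline (interaction -1.125, SE 0.21, adjusted p = 4.02e-05), where 0.329% of all genes were called. With PTZ0 as the baseline the interaction was -0.83 (SE 0.20, adjusted p = 0.00694), where 0.423% were called. Without the first Control PTZ45 library they were -0.90 and -0.61. That fit leaves 1 library in Control PTZ45 and takes its spread from the other groups, so whether the calls depend on that library cannot be told. With PTZ0 as the baseline, the call was lost when the first library of CBP-ifKO PTZ0 (adjusted p = 0.0877) or of CBP-ifKO PTZ45 (0.102) was left out. It was also lost with edgeR (0.151) and without the libraries of high Ttr (0.116). The Ciart interaction was -0.67 (SE 0.28) over Sal and -0.64 (SE 0.28) over PTZ0, with unadjusted p of 0.0169 and 0.0223 and an adjusted p of 1 in both. A smaller rise of Ciart in CBP-ifKOs was therefore not established. The interactions of the other 8 members lay between -0.28 and 0.42.

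The rise of Per1 was then set against each other clock gene within the same library, since such a ratio does not depend on the scaling between libraries. The log2 ratio of Per1 to Per2 was between -0.18 and 0.03 in the 6 control libraries given saline and 1.29 and 1.36 in Control PTZ45. In CBP-ifKOs it was between -0.61 and -0.13 after saline and between 0.05 and 0.38 in PTZ45. The groups thus did not overlap in either genotype. With mice given PTZ last against mice given saline last, permuted within genotype, the mean difference over both genotypes was 0.95 (two-sided exact permutation p = 0.000425, the smallest the test can give, adjusted p = 0.00383 over 9 genes). The difference was 1.40 in controls and 0.49 in CBP-ifKOs.

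Per1 passed the same test against 8 of the 9 genes, the exception being Ciart. In CBP-ifKOs the groups overlapped for all of them except Per2. The mean difference over both genotypes was 0.94 against Per3, 0.80 against Cry1, 0.68 against Cry2, 0.68 against Nr1d1 and 0.67 against Nr1d2. Against the output genes it was 0.78 for Dbp, from 1.39 in controls and 0.16 in CBP-ifKOs, and 0.89 for Tef, from 1.42 and 0.35. Against Per3, Cry1, Cry2, Nr1d1 and Nr1d2 the difference was between 1.06 and 1.40 in controls and between 0.20 and 0.48 in CBP-ifKOs. Adjusted exact permutation p were between 0.00383 and 0.00718 for these 8. Against Ciart it was 0.12 (exact permutation p = 0.367), with -0.02 in CBP-ifKOs and 0.27 in controls, where the exact permutation test on controls alone gave p = 0.107. With Sal as the only baseline, 5 of the 9 passed, and Nr1d2, Dbp and Tef no longer did. In CBP-ifKOs alone, the smallest exact permutation p possible was 0.0119, and a single gene at that p has an adjusted p of 0.107 over 9 genes, so that it could not pass. Per2 was at that smallest exact permutation p, and the difference against Dbp was 0.16 (exact permutation p = 0.298). In controls alone, 8 of 9 passed, at the smallest exact permutation p possible with 2 PTZ45 libraries, 0.0357. A single gene at that p could not pass over 9 genes there either. The 8 passed because they tied at it, with the same Per1 values in each ratio.

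**Figure D3:**
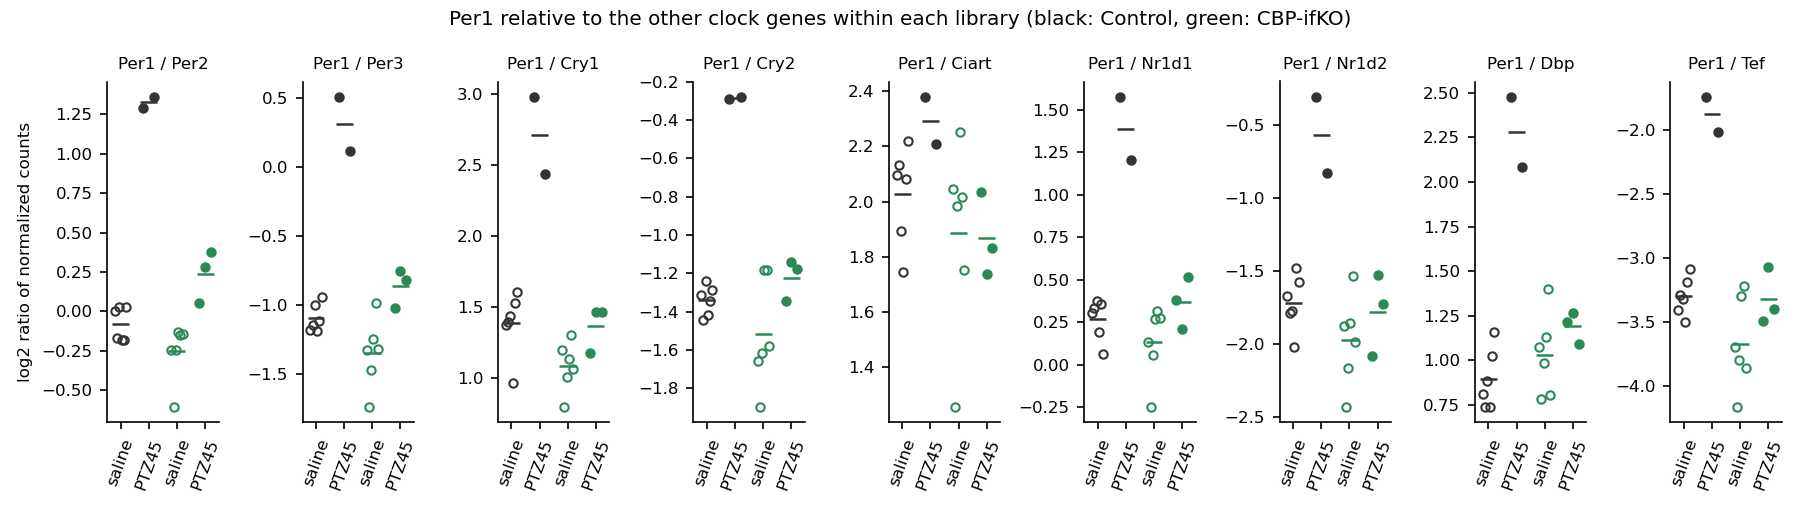
Log2 ratio (y axis, own scale in each panel) of Per1 to each other clock gene in single libraries, for mice given saline last (Sal and PTZ0, open) and PTZ45 (filled) in Control (black) and CBP-ifKO (green), with bars at the means. Both Control PTZ45 libraries lie above all control libraries given saline in all panels except that of Ciart, where the lower of them, at 2.21, is within their range.

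The kindling protocol alone, tested as PTZ0 against Sal, left no called change in any member in either genotype, by DESeq2 or edgeR. Of all genes, 0.00843% were called in controls, where both groups shared lane 3, and 0.0112% in CBP-ifKOs. In controls Per1 differed by -0.05 (95% interval -0.26 to 0.17), Nr1d1 by -0.19 (-0.44 to 0.05) and Dbp by 0.12 (-0.12 to 0.36) on the log2 scale. All 3 Dbp values in PTZ0 lay above those in Sal, as did those of 3.7% of all genes tested. No member had an unadjusted p under 0.05 in controls, where 0.581% of all genes did, and the intervals of all 10 lay within -0.44 and 0.36. In CBP-ifKOs 1 member, Per1, passed that unadjusted threshold, as did 0.336% of all genes, with a difference of -0.34 (DESeq2 adjusted p = 1, interval -0.64 to -0.04), and the other 9 lay between -0.20 and 0.06.

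The last question was whether the clock genes differed between genotypes. Over all treatments, 5 of the 10 members were called lower in CBP-ifKOs and none higher, where 11.5% of all genes were called lower and 7.76% higher. The median log2 difference was -0.20 over the 10 members and 0.01 over all genes tested. They were the repressors Per1, Cry2 and Ciart, the REV-ERB gene Nr1d1 and the output gene Dbp. Only Dbp separated the genotypes in all libraries. It lay between 224 and 268 normalized counts in the 8 control libraries (median 246) and between 157 and 212 in the 9 CBP-ifKO libraries (median 186), a separation in this direction found for 2.16% of all genes. The log2 difference was -0.39 (SE 0.07, adjusted p = 4.42e-06), and it was called in all 25 alternatives.

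Within treatments, Dbp was at 244, 249 and 236 normalized counts in Control Sal and at 195.4, 185 and 207 in CBP-ifKO Sal, with a log2 difference of -0.30 (SE 0.15, adjusted p = 0.412). In PTZ0 it was at 263, 268 and 259 in controls and at 186, 157 and 172 in CBP-ifKOs, a difference of -0.62 (SE 0.14, adjusted p = 0.000482), where 5.25% of all genes were called lower. In PTZ45 it was at 228 and 224 in controls and at 167, 209 and 212 in CBP-ifKOs, a difference of -0.20 (SE 0.18, adjusted p = 0.814). All CBP-ifKO libraries lay below the control libraries in each treatment, as was the case for 11.1% of all genes in Sal, 15.2% in PTZ0 and 18.3% in PTZ45. The PTZ0 call was lost without the libraries of high Ttr, at a difference of -0.61 (adjusted p = 0.188). It was also lost with the replicate number as a block plus GC correction. On lane 4, where the control mice had received PTZ and the CBP-ifKO mice saline, Dbp was higher in controls by 0.20 (SE 0.18, adjusted p = 0.757). Of the exonic bases of Dbp, 18.01% overlap with Sphk2 on the opposite strand, and Sphk2 differed by 0.09 (SE 0.07, adjusted p = 0.429) between genotypes.

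Per1 was lower in CBP-ifKOs by -0.62 on the log2 scale over all treatments (SE 0.16, adjusted p = 0.00134), and this value includes the PTZ45 groups. In PTZ45 itself it was at 1270 and 948.5 normalized counts in controls and 388, 503 and 453 in CBP-ifKOs, a log2 difference of -1.31 (SE 0.15, adjusted p = 2.16e-16), where 2.82% of all genes were called lower. That call was lost with the replicate number as a block (adjusted p = 0.0883). In PTZ0 Per1 was at 462, 447 and 478 against 392, 269 and 340, a difference of -0.48 (SE 0.12, adjusted p = 0.00523). This call was lost without any 1 of 3 libraries, Control PTZ0 replicates 1 and 3 and CBP-ifKO PTZ0 replicate 2, with adjusted p between 0.0724 and 0.0999. It was also lost without the libraries of high Ttr and with the replicate number as a block plus GC correction. The difference lay between -0.60 and -0.35 over 14 alternatives. In Sal the difference was -0.19 (SE 0.14, adjusted p = 0.730), and neither DESeq2 nor edgeR called any member there, where 1.77% of all genes were called lower and Cry2 and Dbp had an unadjusted p under 0.05 with lower values, as did 3.21% of all genes. Sal and PTZ0 alone gave -0.33 (SE 0.10, adjusted p = 0.0109) for Per1 and -0.46 (SE 0.09, adjusted p = 3.72e-06) for Dbp, and no other member was called, where 9.04% of all genes were called lower.

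Ciart differed by -0.40 (SE 0.12, adjusted p = 0.00562) over all treatments and by -0.85 (SE 0.22, adjusted p = 0.00726) in PTZ45, and by -0.20 (adjusted p = 0.255) when the PTZ45 groups were left out. Its PTZ45 call was lost without CBP-ifKO PTZ45 replicate 1 (adjusted p = 0.144) and with the replicate number as a block, with or without GC correction. The Ciart difference in PTZ45 lay between -1.02 and -0.69 over 13 alternatives, including fits with 1 Control PTZ45 library left. Cry2 lay between 1089 and 1552 in controls and between 969 and 1236 in CBP-ifKOs, a log2 difference of -0.22 (SE 0.07, adjusted p = 0.00751), which missed the threshold without the PTZ45 groups (-0.16, adjusted p = 0.0929) and without the libraries of high Ttr (-0.19, adjusted p = 0.125). In PTZ45 Cry2 differed by -0.376 (SE 0.13, adjusted p = 0.0793) with no overlap between genotypes, a separation shared by 18.3% of all genes, and was called in 2 of 13 alternatives (1 fit of all libraries, and without the second Control PTZ45 library). The transcript D930015M05Rik shares 4.67% of the exonic bases of Cry2 on the opposite strand, and its part in the Cry2 values was not tested. Nr1d1 lay between 355 and 504 in controls and between 299 and 435 in CBP-ifKOs, a difference of -0.22 (SE 0.08, adjusted p = 0.0384). That call was lost in 15 of 25 alternatives. Thra, which shares 8.55% of the exonic bases of Nr1d1 on the opposite strand, was itself lower by -0.22 (SE 0.05, adjusted p = 3.10e-05), and its part in the Nr1d1 value was not tested.

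The other 5 members were not called between genotypes. Per2 differed by -0.18 (95% interval -0.32 to -0.04, adjusted p = 0.0609), Per3 by -0.09 (-0.18 to -0.01), Nr1d2 by -0.08 (-0.16 to 0.00), Cry1 by -0.02 (-0.16 to 0.12) and Tef by 0.07 (-0.02 to 0.16). Within treatments, the members without a value above lay between -0.28 and 0.03 in Sal, between -0.21 and 0.06 in PTZ0 and between -0.255 and 0.144 in PTZ45, and none was called. Of the output genes Dbp and Tef, which encode related factors, Dbp was called lower, and the sign of the Tef value was not established. Some markers of hippocampal cells were also called between genotypes, where 11.5% of all genes were lower and 7.76% higher. Lower were 3 of 4 CA1, 2 of 4 CA3, 2 of 6 interneuron, 2 of 4 astrocyte and 1 of 4 endothelial markers. Of 4 dentate granule markers 1 was higher and 1 lower, and of 3 general excitatory, 4 oligodendrocyte and 4 microglia markers none was called in either direction. The summed level of 4 CA1 markers was between 3827 and 4464 normalized counts in the control groups and between 2578 and 3480 in the CBP-ifKO groups, and that of 4 CA3 markers between 2233 and 2651 and between 1712 and 2274, which overlap. The sum of 4 astrocyte markers was between 12110 and 13380 in controls and between 10800 and 13030 in CBP-ifKOs. Their part in the clock gene values was not tested, and genotypes shared no lane within a treatment.

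**Figure D4:**
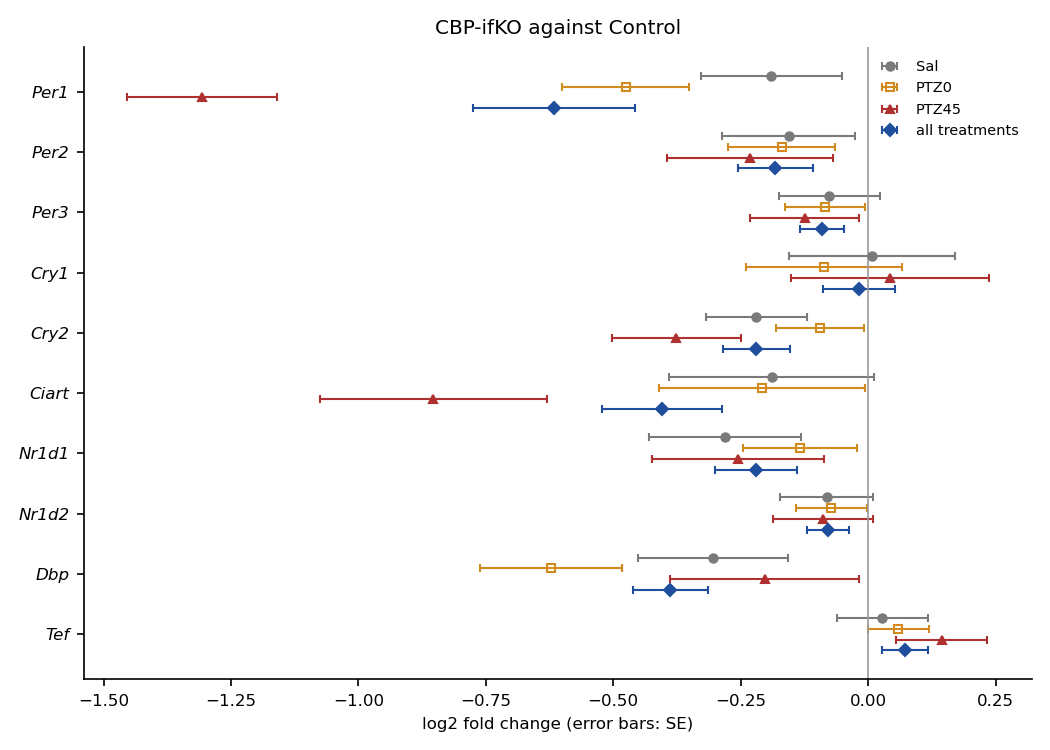
Log2 fold change (x axis) of each clock gene in CBP-ifKO against Control within Sal (grey circles), PTZ0 (orange squares) and PTZ45 (red triangles) and over all treatments (blue diamonds), with SE as error bars. Per1 in PTZ45 is the lowest value, at -1.31, and Dbp is at -0.30, -0.62 and -0.20 in the 3 treatments.

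A list of 21 other clock genes was read in the same fits. After PTZ none of them was called in either genotype or over either baseline, and their median log2 difference over Sal was 0.02 in controls and 0.00 in CBP-ifKOs, against 0.01 and 0.00 over all genes tested. In controls 2 of them had an unadjusted p under 0.05 over Sal, against 4.03% of all genes. Clock differed by 0.19, and Nfil3, which encodes a repressor acting on the same D-boxes as DBP and TEF, by 0.80 (SE 0.26, adjusted p = 0.117). Nfil3 was at 109.7 and 118.5 normalized counts in Control PTZ45 and between 52.9 and 73.2 in Control Sal. Of all genes, 16.7% lay above Sal without overlap. Between genotypes over all treatments, 2 were called higher and 5 lower in CBP-ifKOs, against 7.76% and 11.5% of all genes. Arntl, which encodes BMAL1, was lower by -0.23 (SE 0.05, adjusted p = 5.52e-05) and Npas2, a paralog of Clock, by -0.38 (SE 0.11, adjusted p = 0.00445). Hlf, which encodes the close relative of DBP and TEF, was lower by -0.34 (SE 0.06, adjusted p = 1.09e-07), and with Dbp it makes 2 of the 3 genes of that family lower. Usp2, a clock-controlled deubiquitinase, was lower by -0.37 (SE 0.07) and the ubiquitin ligase component Fbxw11 by -0.13 (SE 0.05). Arntl2, a paralog of Arntl, was higher by 0.34 (SE 0.08), and Fbxl21, a ubiquitin ligase component that acts on CRY proteins, by 0.37 (SE 0.12). Arntl and Hlf lay lower in all 9 CBP-ifKO libraries than in the 8 control libraries, as did 2.16% of all genes. The list median was -0.06, against 0.01 over all genes tested.

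Since the time of day is unknown, shared deviations of single mice were examined after removal of the group means. Of 45 pairs of members, 6 passed a permutation test over the 17 libraries, with Benjamini-Hochberg adjustment over the 45. Per1 deviated together with Per2 (r = 0.77, rho = 0.76, adjusted permutation p = 0.00945), Cry2 (r = 0.76, rho = 0.82), Nr1d1 (r = 0.73, rho = 0.71) and Per3 (r = 0.66, rho = 0.65). Per2 deviated with Cry2 (r = 0.76, rho = 0.74), and Cry2 against Nr1d2 (r = -0.64, rho = -0.68). Without the 2 libraries farthest from the median of the first gene, r was between 0.53 and 0.80 for the positive pairs and -0.66 for the last. Dbp and Tef, the output genes, correlated with Per1 at r = 0.39 and -0.02. Such r are not particular to clock genes. Among 13040 other genes ordered by r with Per1 on the same values, Per2 was 238th, Cry2 258th, Nr1d1 389th and Per3 683rd. The p above are too small, because group means were removed first. When values were exchanged only within groups, 0 of the 45 pairs passed in exact permutation tests, and 8 had an unadjusted p under 0.05, with the lowest adjusted p at 0.153 for Per1 and Nr1d1. With the GC trend removed 3 pairs passed by the first test.

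**Figure D5:**
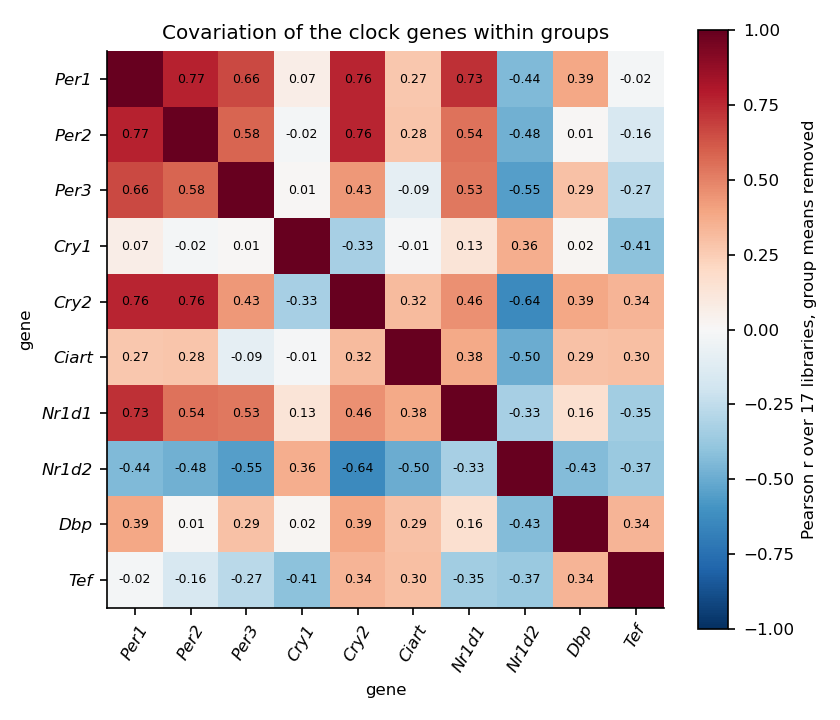
Pearson r between clock genes over 17 libraries after removal of group means from log2 normalized counts. Red is positive and blue negative. Per1, Per2, Per3, Cry2 and Nr1d1 form the positive block, with r between 0.43 and 0.77, and Nr1d2 is negative against all members except Cry1.

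Over all 17 libraries, with group means kept, the genes most like Per1 were looked for among 13040 others. They were Egr3 (r = 0.95), Trib1 (r = 0.94), Nr4a2 (r = 0.93), Irs2 (r = 0.93) and Nr4a1 (r = 0.92) on log2 values. Egr3, Nr4a1 and Nr4a2 encode transcription factors known as immediate early genes. Ciart was the 28th gene in this order (r = 0.87) and the first of the members, Cry2 was 210th (r = 0.71) and Tef was 12752nd (r = -0.63). This is a description over libraries that share groups and lanes, and the 2 Control PTZ45 libraries weigh heavily in it.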

How the data were processed

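The deposited values were raw read counts per gene, whole numbers that the authors had not normalized. By the methods of the study and the submitters' processing notes, single-end reads of 50 bases were trimmed with Trim Galore 0.6.4, aligned with STAR 2.6.1 to mm10 (GRCm38), kept above a mapping quality of 10 and counted on exons of Ensembl release 99 with Rsubread. Strand use in counting is not given in the sources used here, so counts of genes overlapping on opposite strands are uncertain. Of 18 library columns, 1, named like those of Control PTZ45, matched no sample and was used in no step. Gene symbols, positions and exon lengths came from GENCODE M21, which held 99.6% of the identifiers.

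The main test was the two-sided Wald test of DESeq2 1.42.0 in R 4.3.3, after the methods of the study, with DESeq2 size factors and independent filtering. Pairs of groups were fitted alone, interactions on 4 groups, and genotype over all 17 libraries with treatment as a term. A gene was called at a Benjamini-Hochberg adjusted p, over all genes tested, under 0.05. All 10 members had an adjusted p in every comparison. Ratios and correlations were tested by permutation in Python 3.11.15, and the scripts were tested on simulated data. Likeness used log2(normalized counts + 1) and genes with a mean of at least 50. Alternatives were edgeR 4.0.16, TMM, a filter of 10 counts in 2 libraries, a GC correction (loess, span 0.5), the replicate number as a block, 1 fit of all libraries and leaving out each library. Leaving out the libraries of high Ttr or the PTZ45 groups, the comparison within lane 4, tests in each genotype alone and permutation within groups were added after seeing the data. All 10 genes were tested in each comparison and are named or given by their range. Other clock genes and glucocorticoid-responsive genes are named where called after PTZ or between genotypes over all treatments. Their calls between genotypes within single treatments and in the lane 4 comparison are not named. Cell type markers are counted by list. Members and lists were chosen with earlier results of these data known.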

Additional observations from a re-analysis of the deposited data

Results flagged for a closer look

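The response of Per1 to the last PTZ injection differed between genotypes by the interaction term of DESeq2, at -1.125 on the log2 scale with Sal as the baseline and at -0.833 with PTZ0 as the baseline. The first call was lost in 1 of 19 alternatives, a fit without Control PTZ45 replicate 1 that leaves 1 library in that group. The second was lost in 5 of 19, of which 1 is that same fit. Per1 rose in both Control PTZ45 libraries, and in CBP-ifKO PTZ45 it lay at 388 to 503 normalized counts against 361 to 488 in Sal and 269 to 392 in PTZ0. Control PTZ45 was sequenced on another lane than the other groups of these fits except CBP-ifKO Sal. Lane and group cannot be told apart. The genotypes also differed in seizures under the kindling protocol, by the study, and the part of this was not tested.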

How the results depend on the processing

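Among counts of called clock genes, passing ratios and passing pairs, 205 stayed within 1.5 times the main count over all alternatives and 25 did not. For single genes, counted where at least 1 setting made a call, 530 values kept direction and side of the threshold, 44 lost their call, 12 gained one and 1 reversed, and the cause was not tested. Values never called also changed sign, such as Cry2 over Sal in controls (0.149, lowest -0.083), Dbp there (-0.105, highest 0.131) and Per2 between genotypes in PTZ45 (-0.231, highest 0.038). Per1 and Ciart were both called by PTZ in controls, and with the replicate number as a replicate block 1 was called over Sal (1 also with GC correction) and 1 over PTZ0, since Ciart had an adjusted p of 0.766, 0.960 and 0.105 there. Leaving out 1 replicate gave 1 to 2 over Sal and 2 to 3 over PTZ0. GC correction called 1 gene, Per1, in CBP-ifKOs over PTZ0, where the main count was 0. CBP-ifKO against Control gave 2 calls in PTZ0, but 0 with the block and GC correction, 0 without the high Ttr libraries and 1 to 2 without single replicates. In PTZ45 it gave 2, but 0 with the block, 1 with the block and GC correction and 1 to 2 without single replicates. The Per1 interaction was 0 to 1 calls without single replicates over either baseline, and over PTZ0 it was 0 with edgeR and 0 without the high Ttr libraries. Over all treatments, 5 genes were called lower, 2 in Sal and PTZ0 alone, and 4 to 7 without single replicates. Per1 rose against 8 of 9 genes, against 5 with Sal as the only baseline and against 0 in CBP-ifKOs alone, where 1 gene alone could not pass. The 6 covarying pairs became 3 with GC correction, 0 with permutation within groups and 4 to 8 without single replicates. Cry2 in Control PTZ45 against PTZ0 reversed to -0.018 without Control PTZ45 replicate 1, and was called without replicate 2 (0.415). In a check of replicate numbers, 15 of 40 pairs of same-numbered libraries correlated above 0.1, and 7 of 17 libraries correlated best with their own number. By its library name Control PTZ45 replicate 2 is number 3, whereas the check and the block used 2. Whether replicate numbers pair the mice therefore cannot be told. With 2 Control PTZ45 libraries, the precision of all PTZ45 values in controls is limited by the number of mice rather than by read depth, and intervals assume the spread that DESeq2 fits across genes.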

Other observations

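Per1 is also a known target of the glucocorticoid receptor, so 13 other glucocorticoid-responsive genes were read in the same fits. After PTZ in controls, only Errfi1, an inhibitor of EGF receptor signalling, was called, with log2 fold changes of 1.13 (SE 0.13, adjusted p = 5.07e-17) over Sal and 1.18 (SE 0.11, adjusted p = 2.08e-22) over PTZ0, where 0.939% and 1.18% of all genes were called higher. Its interaction with genotype was -0.90 (adjusted p = 0.00682) and -0.92 (adjusted p = 0.000275). The list median over Sal was -0.14 in controls, against 0.01 over all genes tested. By unadjusted p under 0.05, 3 others were below Sal in controls, Tsc22d3 (-0.293), Hif3a (-0.887, adjusted p = 0.0854) and Plin4 (-0.649, adjusted p = 0.1004), where 4.03% of all genes passed in either direction, and both Hif3a and Plin4 were called in 1 of 13 alternatives. In CBP-ifKOs none of the 13 was called after PTZ by DESeq2, and 3 had an unadjusted p under 0.05 over Sal, all with negative values (Zbtb16, Hif3a and Plin4), against 2.46% of all genes in either direction. Over all treatments 6 of the 13 were called lower in CBP-ifKOs and none higher, where 11.5% of all genes were called lower. They were Tsc22d3 (-0.25), Sgk1 (-0.47), Errfi1 (-0.50), Cdkn1a (-1.01), Ddit4 (-0.25) and Mertk (-0.20). Corticosterone was not measured.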
